A study of Mus musculus with 14 samples.

Results

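Of 203483 bins of 200 bp in H3K4me1 peaks of mouse embryonic stem cells (ESCs) that were well covered before and after differentiation, 6639 were almost unmethylated in ESCs and highly methylated after 4 days of retinoic acid. They are called gained bins here. A bin was eligible if it overlapped a peak of the ESC H3K4me1 list by at least 1 bp and held at least 30 CpG counts in H3K4me1 before as well as after differentiation. Gained bins were then selected on the 5-methylcytosine (5mC) level of the same 2 libraries, under 10% in ESCs and 50% or more in differentiated cells. Gained bins made up 3.26% of all eligible bins and 9.64% of the 68844 that were under 10% in ESCs. Of the remaining bins under 10% in ESCs, 24281 were also under 10% in differentiated cells (stayed bins) and 37924 lay between 10 and 50% (intermediate bins).

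All cells came from R1, a male mouse ESC line kept in serum and 1000 U/mL LIF with 2i, which is 1 µM PD0325901 (a MEK inhibitor) and 3 µM CHIR99021 (a GSK3 inhibitor). ESCs were taken 2 days after 2i was removed, in 15% serum with LIF. Differentiated cells had 4 days of 1 µM retinoic acid in 10% serum without LIF, and XEN cells (extraembryonic endoderm) had 9 days of 0.1 µM retinoic acid and 10 ng/mL Activin A in 15% serum. Chromatin was cut with micrococcal nuclease, precipitated with an antibody against H3K4me1 or H3K27ac and treated with bisulfite, so that 5mC was read on the DNA carrying each mark (ChIP-BS-seq). There was 1 library per mark for ESCs and for differentiated cells, which allows no test of the cell states, and there were 2 per mark for XEN cells. The XEN files carry names with the marks exchanged relative to the labels. Marks were taken from the labels here, so these 4 libraries are called by the mark they are labelled with. The marker genes of ESCs and differentiated cells were not checked here, since no table paired the transcript identifiers with gene names. Those of XEN cells could not be, as these cells had no RNA sample.

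H3K4me1 marks enhancers whether or not they are in use, and H3K27ac marks those that are active. Enhancers in use are usually kept low in 5mC, with TET enzymes oxidising 5mC and bound transcription factors keeping the DNA accessible. DNMT3A and DNMT3B place new methylation when a cell leaves the pluripotent state. An antibody enriches DNA that carries its mark and also recovers some DNA without it, so 5mC read this way belongs mainly, but not only, to marked copies of a well-marked enhancer.

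The ESC and differentiated-cell libraries held between 32305709 and 58803653 CpG counts and the XEN libraries between 12147115 and 31345707. Over the whole genome the H3K4me1 library went from 38.6% 5mC in ESCs to 54.8% in differentiated cells and the H3K27ac library from 33.0 to 38.7%. In XEN cells the libraries labelled H3K4me1 had 47.9 and 49.2% 5mC and those labelled H3K27ac 61.5 and 61.5%, an order opposite to that in the other cells.

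In the libraries used for selection, gained bins had a median 5mC of 6.11% in ESCs, with quartiles of 3.49 and 8.197%, and of 58.8% in differentiated cells, with quartiles of 53.6 and 65.7%. These values follow from the rule and are given with no test. The change in a bin ranged from 40.1 to 94.4 percentage points, with a median of 53.3 points. Most gained bins stopped short of full methylation in H3K4me1 chromatin, since 207 reached 80% or more and 17 reached 90% or more. At the other end, 421 gained bins had no methylated count in ESCs.

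The thresholds cut through a continuous distribution. The plot of levels in differentiated cells shows no gap at 50%. Just inside the rule, 2132 gained bins had between 50 and 55% in differentiated cells (401 of them exactly 50%) and 1840 had between 8 and 10% in ESCs. Just outside it, 2194 bins under 10% in ESCs had between 45 and 50% in differentiated cells, and 2012 bins of 50% or more in differentiated cells had between 10 and 12% in ESCs. The counts behind a bin were modest, with a median of 67 in ESCs and 47 in differentiated cells. The exact 95% (Clopper-Pearson) intervals of both cell states lay wholly past their threshold in 302 of the 6639 gained bins. These intervals cover counting error only, as a read can carry several CpGs and PCR can copy it.

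**Figure D1:**
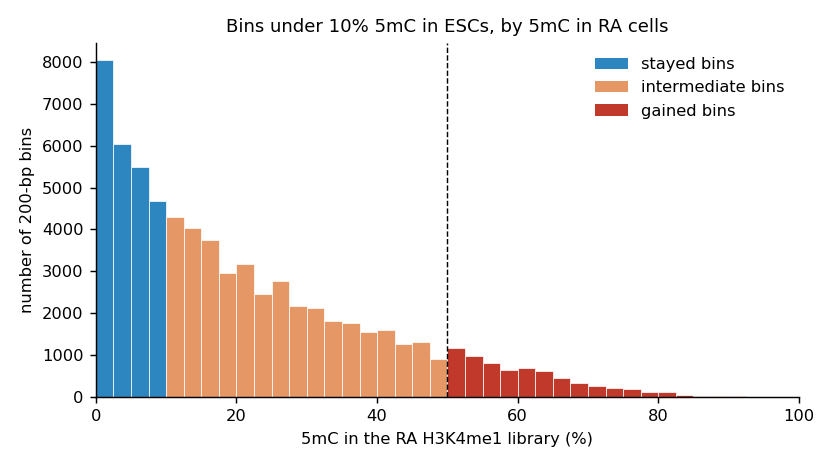
Number of 200-bp bins under 10% 5mC in ESCs (vertical axis) by their 5mC in the H3K4me1 library of differentiated cells (horizontal axis, %, in steps of 2.5 points), with the dashed line at the 50% threshold. The 24281 stayed bins (blue), 37924 intermediate bins (orange) and 6639 gained bins (red) form a declining distribution with no separate group at high 5mC.

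Bins that qualified differed in their starting level. Among bins under 10% in ESCs, 3.36% of those at 0 to 2% in ESCs were gained bins, compared with 21.8% of those at 8 to 10%. The share also went down with coverage, from 11.1% of bins whose shallower library had 30 to 39 counts to 7.01% of those with 100 or more. The gained bins were spread over chromosomes 1 to 19 and X, from 8.04% of bins under 10% in ESCs on chromosome 5 to 11.6% on chromosome 15. Gained bins were not paired with genes, as no annotation of the files' build (mm9) was used.

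Gained bins lay in broad, strong H3K4me1 peaks. The median width of the peaks they overlapped, taken per bin, was 16648 bp, against 5311 bp for stayed bins and 7115 bp for all eligible bins. Taken per peak instead, the median over all 145840 peaks was 1851 bp. Of the bins under 10% in ESCs in peaks of up to 2500 bp, 1.20% were gained bins, and in peaks over 20000 bp it was 23.6%. The 10% of peaks with the highest scores held 5815 of the 6639 gained bins (87.6%) and 55.6% of the bins under 10% in ESCs. Bins without 30 counts in both H3K4me1 libraries are in none of these shares.

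Within a peak, bins under 10% in ESCs were less often gained bins at the edges. Position was expressed as the distance from the peak centre divided by the distance from centre to edge. In the innermost 20%, 11.7% of bins under 10% in ESCs were gained bins (95% interval 11.1 to 12.2%), and in the outermost 20% this was 4.65% (4.31 to 5.006%). The share of stayed bins ran the other way, from 27.5% in the innermost to 52.5% in the outermost class. The intervals take bins as independent, which bins of the same peak are not. Set against all eligible bins, the position of gained bins differed little. The innermost class held 25.3% of gained and 24.1% of all eligible bins, and the outermost 10.05 and 12.65%. Only 87 gained bins, 1.31%, had their centre within 500 bp of a peak edge, against 35.99% of stayed bins and 10.8% of all eligible bins. This fixed distance takes up less of a wide peak than of a narrow one, and gained bins lay in wider peaks. Their distance from the centre had a median of 2932 bp, against 1255 bp for stayed bins and 1310 bp for all eligible bins. With 1 bin per peak the median was 1855 bp, against 562.5 bp for all eligible bins.

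Most peaks with gained bins held few of them. They fell in 3666 peaks, 14.9% of the 24597 peaks with a bin under 10% in ESCs. Of these peaks, 2416 held 1 gained bin, 604 held 3 or more and 36 held 10 or more, up to 25. Joining adjacent gained bins gave 5785 runs, of which 5093 were single bins, 21 were of 4 or more and the longest was 8 bins. A run ends at any neighbour without 30 counts in both H3K4me1 libraries, and 43.2% of the bins next to a gained bin had that coverage, so runs are lower limits. In addition, 43.6% of gained bins had another within 1000 bp.

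The same peak often held bins with both outcomes. Among 2974 peaks with a gained bin and at least 1 other bin under 10% in ESCs, 1489 (50.1%) also held a stayed bin, and in 131 (4.405%) all such bins were gained bins. In those 1489 peaks the gained bins were nearer to the centre than the stayed bins in 1129 peaks and farther in 356, comparing medians per peak, with a median difference of -1300 bp. Over the same peaks the pooled 5mC of the H3K4me1 library in differentiated cells was 60.4% in 3295 gained bins and 4.74% in 3192 stayed bins, as the rule requires. In libraries that the rule did not use, the contrast within these peaks was 53.4 against 3.52% for H3K27ac after retinoic acid. In XEN cells it was 70.6 and 71.7% against 5.89 and 6.34% for the libraries labelled H3K4me1, and 73.3 and 73.2% against 14.5 and 14.2% for those labelled H3K27ac.

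Neighbouring bins were intermediate between the gained bin and its surroundings. In ESCs a gained bin sat at the low point of a wide trough, with pooled H3K4me1 5mC of 5.93% in the bin, 10.3% at 200 bp, 19.8% at 1000 bp and 24.4% at 2000 bp. In differentiated cells the bin was instead the high point, and the values were 60.1, 52.1, 48.3 and 49.4%. Around stayed bins the trough was still there in differentiated cells, with 4.42% in the bin, 12.1% at 200 bp, 30.7% at 1000 bp and 37.8% at 2000 bp. The value at distance 0 was set by the rule, and neighbours share reads and nucleosomes with the bin, so these profiles are a description.

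Of the 13278 bins next to a gained bin, 5734 had 30 or more counts in both H3K4me1 libraries. Their median 5mC was 7.34% in ESCs and 54.0% in differentiated cells. Gained bins themselves made up 29.8% of these neighbours, compared with 4.66% of the neighbours of intermediate bins and 0.252% of those of stayed bins. Of the covered neighbours of gained bins, 58.8% were at 50% or more in differentiated cells, compared with 43.75% of all eligible bins. A neighbour under 10% in differentiated cells was found in 1.03% of cases beside a gained bin and in 54.9% beside a stayed bin.

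**Figure D2:**
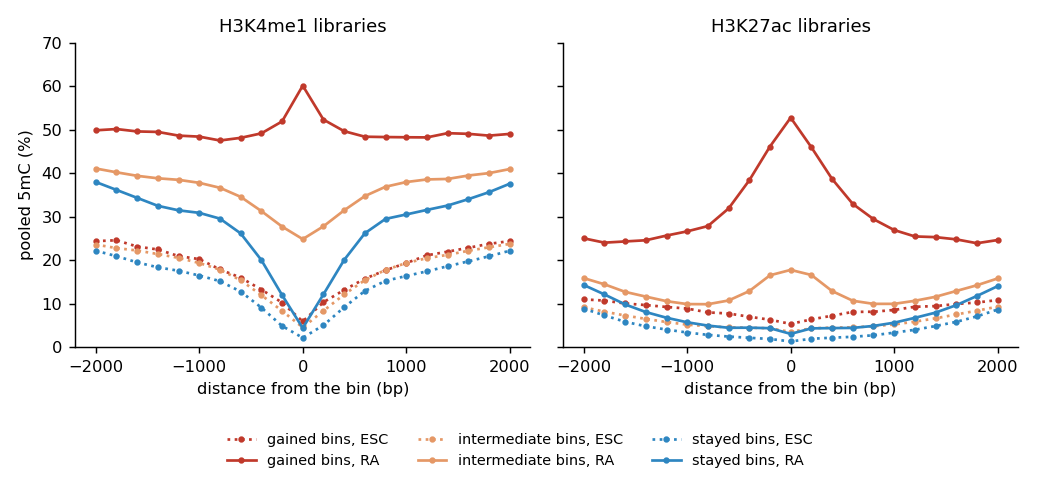
Pooled 5mC (%) of bins at increasing distance (bp) on either side of gained, intermediate and stayed bins, for the H3K4me1 libraries (left) and the H3K27ac libraries (right), with dotted lines for ESCs and solid lines for differentiated cells (RA). In differentiated cells H3K4me1 5mC around gained bins is 48.3% at 1000 bp and 49.4% at 2000 bp, while H3K27ac 5mC peaks at 52.8% in the bin and is 24.8% at 2000 bp.

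The H3K27ac libraries, which the rule did not use, had another shape around the same bins. In differentiated cells H3K27ac DNA was 52.8% methylated in gained bins, 46.1% at 200 bp, 26.8% at 1000 bp and 24.8% at 2000 bp. It thus formed a local maximum where H3K4me1 5mC was high all along. In ESCs the same positions had 5.36, 6.37, 8.73 and 10.9%. Intermediate bins had such a maximum in differentiated cells too, at a lower level, with 17.8% in the bin and 9.95% at 1000 bp. The H3K27ac signal, as CpG counts, was highest in the gained bin itself in both cell states, which is given as a description. In differentiated cells it was 0.673 CPM per bin in the bin, 0.464 at 200 bp and 0.564 at 1000 bp (CPM, CpG counts scaled to 1000000 per library), and in ESCs it was 1.48, 0.912 and 0.789. Stayed bins had such a maximum too, with 1.58 CPM in the bin and 1.30 at 200 bp in ESCs. In differentiated cells their values were 2.02 and 1.62. For intermediate bins they were 1.21 and 0.90 in ESCs and 1.05 and 0.82 in differentiated cells. Every central bin was selected for its CpG counts in H3K4me1 and its neighbours were not, so a maximum there can follow from the selection. Counts were not divided by the number of CpGs in a bin, which was not known here.

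H3K27ac was lower in gained bins after retinoic acid, and total H3K4me1 was nearly level. H3K27ac over the 6639 bins went from 9799 CPM in ESCs to 4468 in differentiated cells, a ratio of 0.456. For H3K4me1 the values were 8367 and 7626 CPM, a ratio of 0.911. Over all eligible bins the ratios were 1.19 for H3K27ac and 1.17 for H3K4me1, and over stayed bins 1.28 and 1.15. Intermediate bins lay between gained and stayed bins, at 0.864 and 1.107. In bulk chromatin, fewer cells carrying a mark at a site and less of the mark per cell cannot be told apart.

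Counted per bin, the median log2 ratio of differentiated cells over ESCs was -1.02 for H3K27ac in gained bins, with quartiles of -1.98 and -0.12, against 0.26 over all eligible bins. H3K27ac was more than 2-fold lower in 3365 gained bins, 50.7%, against a background of 19.8% of eligible bins, and more than 2-fold higher in 451, 6.79%, against a background of 30%. A loss of more than 2-fold was not confined to gained bins. It was found in 30.2% of intermediate bins, 16.1% of stayed bins and 27.2% of all bins under 10% in ESCs. For H3K4me1 the median log2 ratio was -0.069 in gained bins and 0.25 over all eligible bins. It was more than 2-fold lower in 636 gained bins, 9.58%, against a background of 4.13%. The requirement of 30 counts in differentiated cells keeps out bins whose H3K4me1 was mostly lost. At a minimum of 60 counts the H3K4me1 median turned to 0.17, so its sign depends on the coverage asked for, while that of H3K27ac was -0.72. Over all eligible bins at that minimum the medians were 0.33 for H3K4me1 and 0.41 for H3K27ac.

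These totals were made up of methylated and unmethylated counts. Unmethylated H3K4me1 counts in gained bins went from 7871 to 3041 CPM, and methylated ones from 496 to 4584. Unmethylated H3K27ac counts went from 9273 to 2111 CPM, and methylated ones from 525.5 to 2358. The ratio of unmethylated counts was 0.386 for H3K4me1 and 0.228 for H3K27ac in gained bins, and 1.12 and 1.25 in stayed bins. With total H3K4me1 nearly level, the H3K4me1 ratios of both sets follow from the selection on H3K4me1 5mC, and the H3K27ac counts are the ones that the rule did not use.

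**Figure D3:**
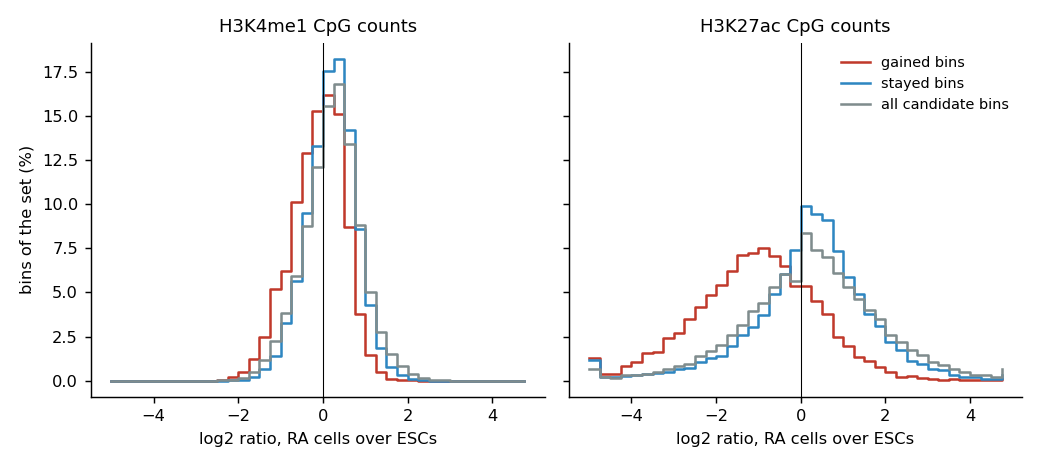
Log2 ratio of CPM in differentiated cells (RA) over ESCs (horizontal axis, values past 5 in either direction placed in the end class) for H3K4me1 (left) and H3K27ac (right), as the percentage of gained, stayed and all eligible (candidate) bins (vertical axis). For H3K27ac the gained bins centre on -1.02 and all eligible bins on 0.26, while for H3K4me1 the medians are -0.069 and 0.25.

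The lower H3K27ac of gained bins was also seen against stayed bins of the same peak. In the 1489 peaks with both kinds, the median H3K27ac log2 ratio was -0.92 in gained bins and 0.26 in stayed bins. Gained bins had the lower ratio in 1206 peaks, 81.0%, with a median difference of -1.07. For H3K4me1 they had the lower ratio in 1070 peaks, with a median difference of -0.40. The H3K27ac counts behind the gained bins of these peaks had a median of 36 in ESCs and 18 in differentiated cells, and those behind the stayed bins 45 and 56.

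Most gained bins remained inside called peaks. In ESCs 6381 (96.1%) lay in an H3K27ac peak, compared with 82.5% of stayed bins and a background of 74.8% of eligible bins. In differentiated cells 6557 (98.8%) lay in an H3K4me1 peak (background 97.6%) and 5696 (85.8%) in an H3K27ac peak (background 80.4%), so for H3K4me1 the share was near the background. Of the 6381 in an ESC H3K27ac peak, 813 (12.7%, 95% interval 11.9 to 13.6%) lay in none in differentiated cells, compared with a background of 11.6%, 10.2% for stayed bins and 15.3% for intermediate bins. This was near the background, and with 1 bin per peak it lay below it, at 16.9 against 18.8%. The interval takes bins as independent, although a peak call can cover several bins at once. By peak lists alone, 5568 gained bins would be called active in both cell states, 813 active in ESCs only, 128 in differentiated cells only and 130 in neither.

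The H3K27ac counts of these classes go with the peak lists that define them and are given as a description. In the 5568 gained bins in H3K27ac peaks of both states the median log2 H3K27ac ratio was -0.90, and in the 813 that left the peaks it was -2.59, with median counts going from 38 to 6. The H3K4me1 log2 ratio was 0.018 and -0.68 in these classes. Median H3K4me1 5mC in differentiated cells was 59.1 and 57.6%, and pooled H3K27ac 5mC was 53.0 and 50.6%. The gained bins that left the H3K27ac peaks were nearer to the peak centre in bp, at a median of 1868 bp against 3290 bp. Such a distance also depends on peak width, which was not compared between these classes.

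5mC on H3K27ac-bound DNA was higher in differentiated cells at nearly all gained bins deep enough to test. Of the 6639, 1179 (17.8%) had 30 or more counts in both H3K27ac libraries, and the test was Fisher's exact test per bin over 29702 eligible bins, adjusted by Benjamini-Hochberg. In this test 1156 of the 1179 (98.05%) passed an adjusted p of 0.05 with higher 5mC in differentiated cells, against a background of 36.3%. The share was 52.1% for intermediate and 5.35% for stayed bins. None passed in the other direction and none had an unadjusted p under 0.05 in that direction. The difference ranged from 2.21 to 92.2 points, with a median of 47.7 points. The test takes each CpG count as independent, which several CpGs on a read and PCR copies are not, so these p-values and those of single bins given later are too small. It compares 2 libraries, not the cell states, and the tested bins are those that kept enough H3K27ac to be counted.

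The 2 marks were close at these bins without being equal. In the 1179 tested bins the ESC medians were 6.02% on H3K4me1 and 4.55% on H3K27ac. After retinoic acid they were 58.2 and 52.9%. The difference between marks in differentiated cells had a median of 7.05 points, with H3K4me1 higher in 887 bins (75.2%, background 65.7%). H3K4me1 was more than 20 points higher in 152 bins (12.9%, background 3.45%) and H3K27ac in 8 (0.679%, background 0.391%). As the rule asked for a high H3K4me1 value in differentiated cells and asked nothing of H3K27ac, this difference is given without a test. In 10 of the 1179 bins H3K27ac 5mC was still under 20% in differentiated cells. Pooled over all 6639 gained bins, with no coverage minimum, H3K27ac 5mC was 5.36% in ESCs and 52.8% in differentiated cells.

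Gained bins were highly methylated in XEN cells too, a separate differentiation of the same line that the rule did not use. In bins with 30 or more counts, the median was 70% (372 bins) and 71.4% (540 bins) in the libraries labelled H3K4me1, and 74.1% (3235 bins) and 73.9% (4037 bins) in those labelled H3K27ac. In the first library labelled H3K4me1, 87.1% of covered gained bins were at 50% or more (background 34.6%), and in the second 90.7% (39.4%). In the libraries labelled H3K27ac it was 95.1% (61.4%) and 95.9% (60.7%). The corresponding medians of stayed bins were 2.33, 2.44, 10.9 and 10.5%.

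Taking only gained bins with 10 or more counts in each of the 4 XEN libraries left 2253. Of these, 1803 (80.03%) had 50% or more in all 4 libraries, compared with a background of 45.6%, with 15.8% of bins under 10% in ESCs and with 3 of 7990 stayed bins. No gained bin was under 20% in all 4, where 76.0% of stayed bins and a background of 14.2% were. All 4 XEN values lay above the ESC H3K4me1 value in 2251 of the 2253 (99.9%, background 71.9%). They all lay above the value of differentiated cells in 1229 (54.55%, background 40.8%) and all below it in 100 (4.44%, background 8.17%). The ESC and differentiated-cell values took part in the selection, so these counts are not tested.

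XEN 5mC was higher in gained bins with more 5mC after retinoic acid. In the 3593 gained bins at 50 to 60% in differentiated cells, the 4 XEN libraries had between 65.2 and 69.3% pooled 5mC. In the 2061 bins at 60 to 70% they had between 73.1 and 75.6%, and in the 985 bins at 70% or more between 78.5 and 80.6%, so the ranges of the 3 classes did not overlap. The median H3K27ac log2 ratio of differentiated cells over ESCs was -0.88, -1.13 and -1.23 in the same classes.

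Between the marks in XEN cells, gained bins differed little. In the 250 with 30 or more counts in each library, pooled 5mC was 67.6 and 67.5% in the libraries labelled H3K4me1 (mean 67.5% ± 0.0600, SD, n = 2) and 71.3 and 71.9% in those labelled H3K27ac (mean 71.6% ± 0.377, SD, n = 2). The difference of 4.08 points exceeded the spread between replicates, but with 2 libraries against 2 the exact two-sided permutation p was 0.333, the smallest this design allows. With no coverage minimum, over all 6639 gained bins, the difference was 2.58 points. Over all eligible bins with 30 or more counts in each library it was 10.7 points. Its direction is that of the labels and would turn if the marks were exchanged between the libraries.

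**Figure D4:**
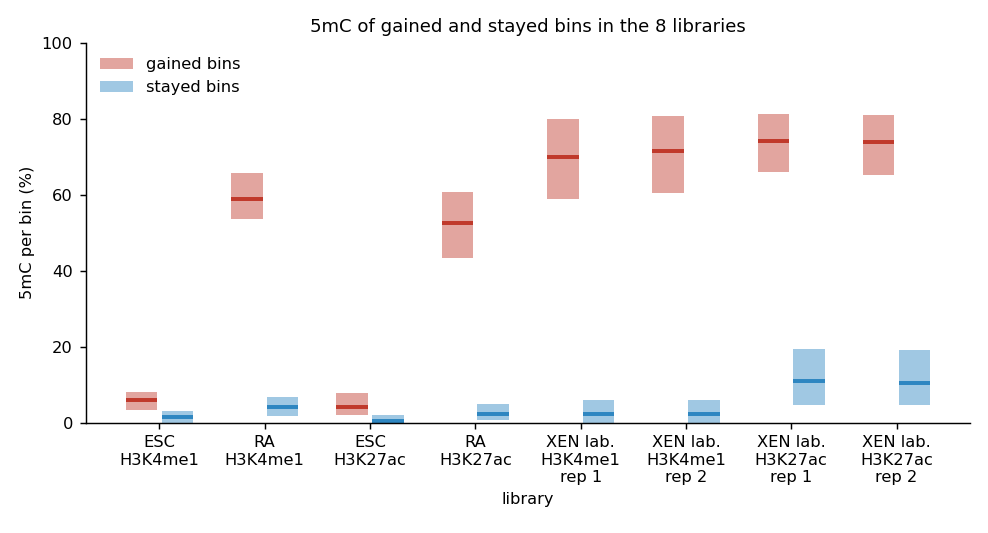
5mC per bin (%) of gained bins (red) and stayed bins (blue) in the 8 libraries, with boxes from the lower to the upper quartile and lines at the medians, over bins with 30 or more counts in the library and with XEN libraries named by the mark they are labelled with (lab.). Gained bins have medians of 52.5% in H3K27ac of differentiated cells and between 70 and 74.1% in the XEN libraries, where stayed bins have between 2.33 and 10.9%.

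Individual bins show how these levels combined. Among 255 gained bins with 100 or more counts in both H3K4me1 libraries, the largest difference was at chr19:44356001-44356200 (mm9), 2160 bp from the centre of a 20648 bp peak. Its H3K4me1 5mC was 7.30% in ESCs (137 counts, 95% interval 3.56 to 13.01%) and 84.0% in differentiated cells (187 counts, 77.9 to 88.9%). Its H3K27ac 5mC was 6.02% of 83 counts and 78.6% of 70 counts (Fisher's exact test, Benjamini-Hochberg adjusted p = 3.429e-19), and the XEN values were 90.6, 78.6, 90.9 and 78.8%. This bin was thus highly methylated on both marks and in all 4 XEN libraries, while its H3K27ac counts differed little, with a log2 ratio of -0.23.

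The next 5 bins by the same measure differed in their acetylation. At chr4:48285001-48285200 H3K4me1 5mC went from 1.80 to 76.6% and at chr14:58349601-58349800 from 7.75 to 82.4%, and both had more H3K27ac counts in differentiated cells, with log2 ratios of 0.91 and 0.40 from fewer than 30 counts in each library. At chr10:21550401-21550600 it went from 5.15 to 78.5% and H3K27ac was lower, with 149 counts in ESCs and 33 in differentiated cells. At chr2:71643001-71643200 it went from 6.35 to 78.5% and H3K27ac went from 60 to 29 counts. At chr6:115627601-115627800 it went from 7.41 to 78.8% and H3K27ac from 69 to 47 counts. All 6 bins stayed in H3K27ac peaks, and their XEN values were between 52.6 and 97.1%. Some of these values rest on few counts, with 19 behind the 52.6% at the chr10 bin. At the chr4 bin the libraries labelled H3K4me1 held 7 and 6 counts. Its H3K27ac 5mC in ESCs was 30% of 10 counts.

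The 4 gained bins with the most H3K27ac counts in differentiated cells gave the best-covered H3K27ac levels. At chr15:25698401-25698600 there were 213 H3K27ac counts in differentiated cells, 51.6% of them methylated (95% interval 44.7 to 58.5%), against 3.39% of 177 in ESCs. At chr8:125969801-125970000 it was 69.5% of 190 counts against 8.18% of 269. At chr3:101969201-101969400 it was 54.7% of 172 against 1.49% of 336. At chr8:125047801-125048000 it was 40.7% of 172 against 0.730% of 274. In these 4 bins the largest Fisher's exact test p, adjusted by Benjamini-Hochberg over all bins tested, was 8.689e-26. The last of them was at 53.6% of 125 counts on H3K4me1 and was between 56.0 and 66.5% in the XEN libraries.

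A few gained bins were low in XEN cells. The lowest mean among the 250 bins with 30 or more counts in all XEN libraries was at chr11:102955601-102955800, with 2.38 and 14.1% in the libraries labelled H3K4me1 and 38.1 and 41.6% in those labelled H3K27ac. Here the libraries of the 2 labels did not overlap. In differentiated cells its H3K4me1 5mC was 51.5% (68 counts, 95% interval 39.03 to 63.8%) and its H3K27ac 5mC 22.5% of 102 counts. At chr11:100586201-100586400 the XEN values were 37.5, 29.7, 26.5 and 34.0%, and at chr1:138127001-138127200 they were 33.3, 20.3, 45.7 and 28.9%. All 3 bins were close to the 50% threshold in differentiated cells, at 51.5, 50.8 and 53.3%, and had more H3K27ac counts there than in ESCs, with log2 ratios from 1.41 to 1.86.

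The highest XEN means were at chr5:136385001-136385200, chr11:20128801-20129000 and chr7:80664401-80664600. The first had 91.7, 97.4, 90 and 94.5% in the 4 XEN libraries, and 5.10% in ESCs and 76.4% in differentiated cells on H3K4me1. The second had between 81.3 and 100% and the third between 87.9 and 97.7%. All 3 had fewer H3K27ac counts in differentiated cells than in ESCs, going from 33 to 28, from 95 to 28 and from 134 to 99.

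Among the runs of gained bins, those of 8, 6 and 5 bins are described, and of the 18 runs of 4 bins the one with the most H3K4me1 counts. The longest, 8 bins at chr10:66564401-66566000, lay 10530 bp or more from the centre of a 26136 bp peak. Over it H3K4me1 5mC was 3.59% of 473 counts in ESCs and 69.1% of 430 in differentiated cells, with single bins between 50.0 and 78.7%. H3K27ac 5mC was 3.56 and 53.0%, on 253 and 100 counts, and the XEN libraries were between 62.8 and 78.5%. The 6 bins at chr12:111735801-111737000 went from 3.23 to 63.2% on H3K4me1 and from 3.62 to 65.5% on H3K27ac, in a peak of 80717 bp.

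The other two runs lay at the centre of narrower peaks. The 5 bins at chr9:65551401-65552400 came within 250.5 bp of the centre of a 9431 bp peak and went from 5.78 to 59.4% on H3K4me1, with XEN values between 81.0 and 90.8%. The 4 bins at chr6:135201601-135202400 came within 45.5 bp of the centre of a 5785 bp peak and went from 7.81 to 62.3%, with XEN values between 66.7 and 76.1%. All 4 runs were in H3K27ac peaks of both cell states.

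The peak with the most gained bins spanned chr9:114403693-114470234, 66542 bp. Of its 146 covered bins, 87 were under 10% in ESCs, and 25 of these were gained, 53 intermediate and 9 stayed bins. Over the 25, H3K4me1 5mC was 6.15% in ESCs and 63.2% in differentiated cells, and on H3K27ac the levels were 5.012 and 55.4%. Scaled to the library totals, both marks were level there, with log2 ratios of 0.0064 for H3K4me1 (1839 counts before and 1482 after retinoic acid) and 0.013 for H3K27ac (838 counts in both). The XEN libraries were between 80.8 and 83.1%. The plot of this peak shows that the gained bins lay on both sides of its centre, the nearest 1537 and the farthest 26737 bp away. Among the 13 covered bins within 2000 bp of the centre, of which 1 was a gained bin, median 5mC was 0% in ESCs and 15.4% in differentiated cells.

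**Figure D5:**
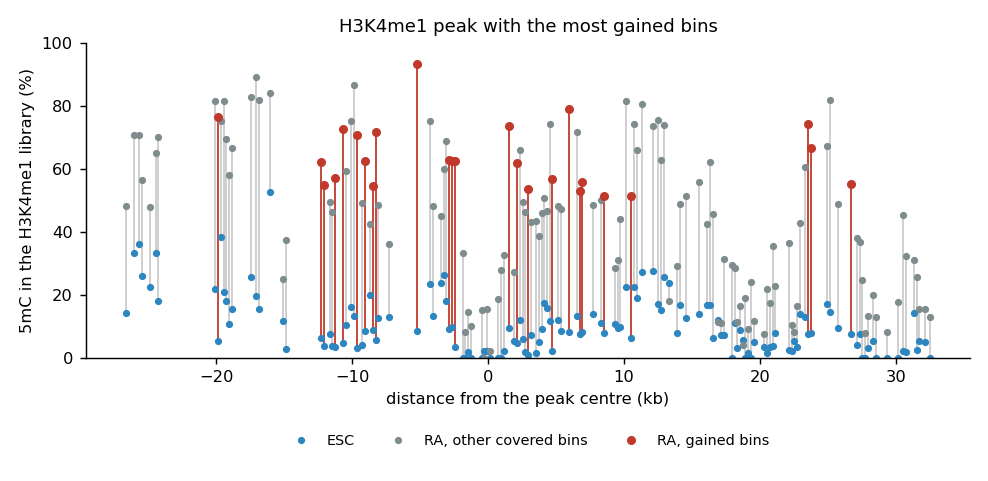
5mC (%) on H3K4me1 of each covered 200-bp bin in the peak with the most gained bins, by distance from the peak centre (kb), in ESCs (blue) and differentiated cells (RA, red for the 25 gained bins and grey for the others), with a line joining the values of a bin. The gained bins reach between 51.2 and 93.3% and lie on both sides of the centre.

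A further 2 peaks held 22 gained bins each. In the one at chr8:109128167-109173412, H3K4me1 5mC of the gained bins was 5.08% in ESCs and 61.4% in differentiated cells, and in the one at chr7:140237860-140313201 it was 4.06 and 61.5%. Both had fewer H3K27ac counts over these bins in differentiated cells, with log2 ratios of -1.09 and -1.26, and H3K4me1 log2 ratios of -0.0037 and 0.20. Within 2000 bp of its centre, the first had 9 covered bins, 3 of them gained bins and none a stayed bin, with a median of 25% in ESCs and 62.2% in differentiated cells. The second had no covered bin there. The XEN libraries were between 65.9 and 73.4% in the first and between 72.0 and 75.5% in the second.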

How the data were processed

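The authors aligned ChIP-BS-seq reads with Bismark and Bowtie (mm9 per the submitters' processing notes), dropped reads of mixed CpG state, and for each 200-bp bin deposited the counts of CpGs read as unmethylated and as methylated, neither scaled nor filtered in the ESC and differentiated-cell files and limited to bins of 4 or more counts in the XEN files. The methylated column was identified as the rare one on the mitochondrial chromosome, and the 2 columns stand in reverse order in the XEN files. The authors called HOMER peaks of each mark and cell state (peak size 2500 bp, local and clonal filtering off), and the deposited peak scores were used only to rank peaks. The paper repeated each experiment, and whether a file of ESCs or differentiated cells pools repeats is not given in the sources used here.

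The 5mC level is the methylated share of all CpG counts. Bins overlapping several peaks went to the one with the largest overlap. Count ratios were scaled to the library total after adding 0.5 counts. Shares and levels have exact 95% (Clopper-Pearson) intervals. Those of shares take bins as independent, which bins of the same peak are not, so they are likely too narrow. H3K27ac 5mC was tested with Fisher's exact test and Benjamini-Hochberg adjustment (threshold 0.05), and XEN marks with an exact permutation test over libraries. The Fisher step was tested on simulated data of 29702 bins, where 82.5% of 200 bins raised by 40 points were called, and 3 unchanged bins. The simulated counts were independent, so this does not measure false calls from shared reads, PCR copies or differences between libraries. XEN replicate numbers only name libraries.

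The members, comparison sets and tests were chosen with earlier results of these data known. Bins named in the text were the 6 with the largest H3K4me1 difference among those of 100 or more counts, the 4 longest runs (ties by H3K4me1 counts), the 4 with the most H3K27ac counts in differentiated cells, the 3 lowest and 3 highest in XEN cells, and the 3 peaks with most members. A list of genes and cell markers in that rule could not be followed, as no annotation of mm9 was used. For the same reason bins within 10 kb of a TSS were kept and no sequence is shown. Whole cell extract, H3K36me and single-cell samples were not analysed here. Alternatives are given in the closing section. Python 3.11.15, numpy 2.4.6, pandas 2.3.3, scipy 1.17.1 and matplotlib 3.10.9 were used.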

Additional observations from a re-analysis of the deposited data

How the results depend on the processing

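The number of gained bins depended on the thresholds, with 11315 at a minimum of 20 counts, 1610 at 60 counts, 2532 with ESC 5mC under 5%, 3046 with 60% or more in differentiated cells and 302 with exact intervals wholly past both thresholds. The median H3K4me1 log2 ratio, -0.069, was -0.14 when scaled to counts outside peaks, -0.32 when scaled to the median of all eligible bins, -0.12 with 1 bin per peak and -0.21 at 20 counts, and it reversed to 0.17 at 60 counts. The median H3K27ac log2 ratio, -1.02, was -0.85 and -1.28 with those scalings, -0.97 with 1 bin per peak and -0.72 at 60 counts. These scalings moved the median of all eligible bins from 0.26 to 0.43 and 0 for H3K27ac and from 0.25 to 0.17 and 0 for H3K4me1. A scaling moves all bins of a library alike, so it leaves the gap between gained and all eligible bins as it was. The share that left the H3K27ac peaks was 15.4% with bins wholly inside peaks and 16.9% with 1 bin per peak, where it was 18.8% over all eligible bins and so turned from above to below theirs. Calls of higher H3K27ac 5mC numbered 2191 of 2312 at 20 counts and 217 of 217 at 60. The median distance from the centre was 1855 bp with 1 bin per peak and 3491 bp at 60 counts. In the comparison within peaks, for which both alternatives were chosen after seeing the data, the H3K27ac difference was -1.16 at 60 counts in 223 peaks. The cause of these shifts was not tested. The XEN mark difference, 4.08 points, was 3.05 points at a minimum of 10 counts and 2.58 with no minimum. The other values moved little, with 6638 gained bins wholly inside peaks, 1143 calls when a difference of more than 20 points was also asked for, and H3K27ac values of -1.03 and -1.10 (within peaks) with at least 10 counts. Leaving out each XEN library gave mark differences between 3.31 and 4.35 points, and with the replicate block the paired difference was 4.08 points (exact sign-flip p = 0.5, the smallest possible with 2 pairs). H3K27ac depth left 1179 gained bins to test, XEN depth left 250, and 1 library per mark leaves the spread between repeats of ESCs and differentiated cells unknown.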
